A study of Mus musculus with 9 samples.

Results

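The lysyl oxidase family of the mouse consists of Lox, Loxl1, Loxl2, Loxl3 and Loxl4, and these 5 genes were taken by symbol from a table of 54532 genes measured in mouse skin. RNA was sequenced from skin biopsies in 3 groups of 3 libraries, namely bleomycin plus topical nitrate, bleomycin without nitrate, and healthy untreated control skin. All mice were labelled wild type, so no allele separated the groups, and both bleomycin groups shared the drug. Bleomycin, a DNA-damaging antibiotic, provokes skin fibrosis in mice that serves as a model of systemic sclerosis. Dose, schedule, strain, sex and age are not given in the sources used here. Nothing in the labels says whether the libraries came from separate animals, and the spread behind each p-value is therefore that between libraries, which may be technical.

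Lysyl oxidases are secreted, copper-dependent amine oxidases. They oxidise lysine side chains of collagen and elastin to reactive aldehydes, which condense into the covalent crosslinks that make fibres insoluble and stiff. Lox and Loxl1 are made as proenzymes whose propeptide is removed by proteases of the Bmp1 group, while Loxl2, Loxl3 and Loxl4 carry scavenger receptor cysteine-rich domains in place of that propeptide. In skin the family is best known for the strength of dermal collagen and the recoil of elastic fibres, and in fibrosis for stiffening the scar.

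All members share a catalytic core, and the coding stretch around its copper-binding histidines is shown here because it marks the feature that makes them one enzyme family. The stretch is 81 coding bases in GENCODE M21 transcripts (GRCm38, mm10), found by the spacing of tryptophan, histidine, cysteine and tyrosine codons. The 4 histidine codons within that spacing are in capitals, and whether each of them binds copper was not tested. The stretch is spliced from 2 exons, and in all 5 genes the exon junction fell after base 47. The sequence of Lox is not shown.
Loxl1: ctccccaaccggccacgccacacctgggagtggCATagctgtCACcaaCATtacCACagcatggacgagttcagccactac
Loxl2: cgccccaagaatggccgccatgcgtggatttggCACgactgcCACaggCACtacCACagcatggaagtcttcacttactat
Loxl3: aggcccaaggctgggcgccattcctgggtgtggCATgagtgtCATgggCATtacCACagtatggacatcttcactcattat
Loxl4: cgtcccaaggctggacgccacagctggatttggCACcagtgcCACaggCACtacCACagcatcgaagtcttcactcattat
The Loxl1 stretch lies on the minus strand at chr9:58294359-58294405 in exon 3 and chr9:58293696-58293729 in exon 4. The Loxl2 stretch lies on the plus strand at chr14:69682292-69682338 in exon 10 and chr14:69689028-69689061 in exon 11. The Loxl3 stretch lies on the plus strand at chr6:83049971-83050017 in exon 10 and chr6:83050116-83050149 in exon 11. The Loxl4 stretch lies on the minus strand at chr19:42599877-42599923 in exon 11 and chr19:42598783-42598816 in exon 12. Loxl2 and Loxl4 were identical at 68 of 81 bases and Lox and Loxl1 at 69, whereas Lox and Loxl4 were identical at 47.

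In the table's mm10 coordinates, Lox (ENSMUSG00000024529) spans chromosome 18 from 52516069 to 52529867 and Loxl1 (ENSMUSG00000032334) chromosome 9 from 58287738 to 58313186, both on the minus strand. Loxl2 (ENSMUSG00000034205) spans chromosome 14 from 69609068 to 69695834 and Loxl3 (ENSMUSG00000000693) chromosome 6 from 83034173 to 83052562, both on the plus strand. Loxl4 (ENSMUSG00000025185) spans chromosome 19 from 42593982 to 42612813 on the minus strand. The 3' end of Loxl3 shares 535 exonic bases, 11.6% of its exonic length and none of its coding sequence, with Htra2 on the opposite strand. Use of strand in the counting is not stated in these sources, and without it reads from those bases cannot be told apart between both genes.

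Levels are given in FPKM, a read count scaled by gene length and library size, so that they can be set side by side between genes. Whole reads recovered from the table came to 15804050 to 18352592 per library, and every member had at least 109 reads in every library. The libraries also differed in tissue content. The summed FPKM of 18 markers of the growing hair follicle ran from 2307 to 15200 with bleomycin plus nitrate, from 51.0 to 4826 with bleomycin and from 3.59 to 2842 in control, lowest in bleomycin 1 and control 1 within their groups. Transcripts of the mitochondrial genome took 2.84 to 4.49% of reads with bleomycin plus nitrate, 3.77 to 4.17% with bleomycin and 6.61 to 8.02% in control.

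All 5 members were expressed above the filter of 1 FPKM in at least 3 libraries, which 14645 genes passed, and each reached 1 FPKM in all 9 libraries. The family kept the order Lox, Loxl1, Loxl2 from high to low in every library. By mean FPKM over the 9 libraries Lox stood at percentile 92.3 of the tested genes, Loxl1 at 88.3, Loxl2 at 78.6, Loxl3 at 37.6 and Loxl4 at 32.5. The ranges of Lox and Loxl1 overlapped with bleomycin plus nitrate, and those of Loxl1 and Loxl2 overlapped in control. The order at the low end differed between groups. Loxl3 stood above Loxl4 in all 3 bleomycin libraries, below it in all 3 control libraries, and above it in 1 of 3 libraries with bleomycin plus nitrate, a pattern noticed after the values were seen and not tested.

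**Figure D1:**
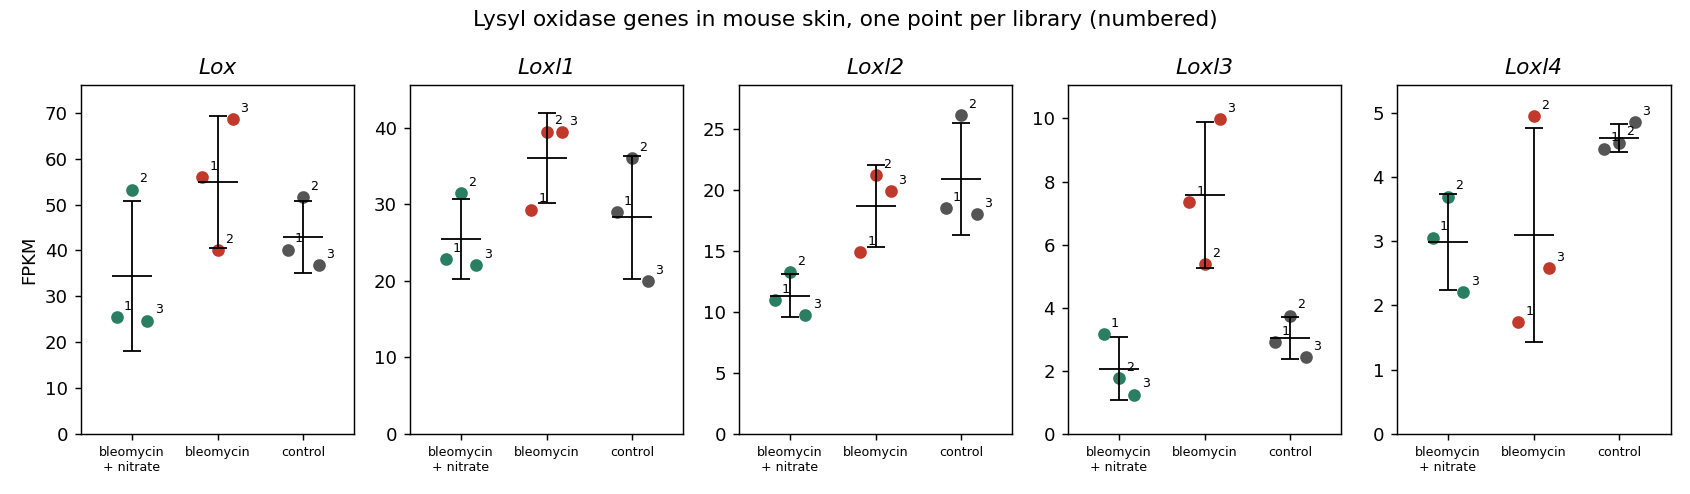
FPKM of each lysyl oxidase gene (vertical axis, from 0) in bleomycin plus nitrate, bleomycin and control, with 1 point per library numbered by replicate and bars for the mean ± SD of 3 libraries. Loxl3 lies between 5.39 and 9.99 FPKM in the bleomycin libraries, above all 6 other libraries, and Loxl2 lies between 9.74 and 13.3 FPKM with nitrate, below all 6 others.

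Among the 5 members only Loxl3 rose with bleomycin against control, and none fell, where 8.43% of all tested genes were called, 4.74% higher and 3.69% lower. Loxl2 was the single member called in bleomycin plus nitrate against control, where it fell, beside 8.53% of genes called, 3.63% higher and 4.9% lower. No member passed in bleomycin plus nitrate against bleomycin, and neither did any other gene, so the background was 0% by limma. A single call among 5 genes is too few to set against those shares. At an unadjusted p under 0.05 in limma, 1 of 5 members (Loxl3) stood beside 26.9% of genes in bleomycin against control. By the same measure 2 of 5 (Loxl2 and Loxl3) stood beside 17.9% in bleomycin plus nitrate against bleomycin, and 1 of 5 (Loxl2) beside 31.5% in bleomycin plus nitrate against control. Called means an adjusted p below 0.05 (Benjamini-Hochberg, 14645 genes) in limma's test on log2(FPKM + 1). Differences are on that scale with their standard errors, and they understate the change of low genes. The 3 comparisons share libraries, so their values are set side by side and are not independent.

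**Figure D2:**
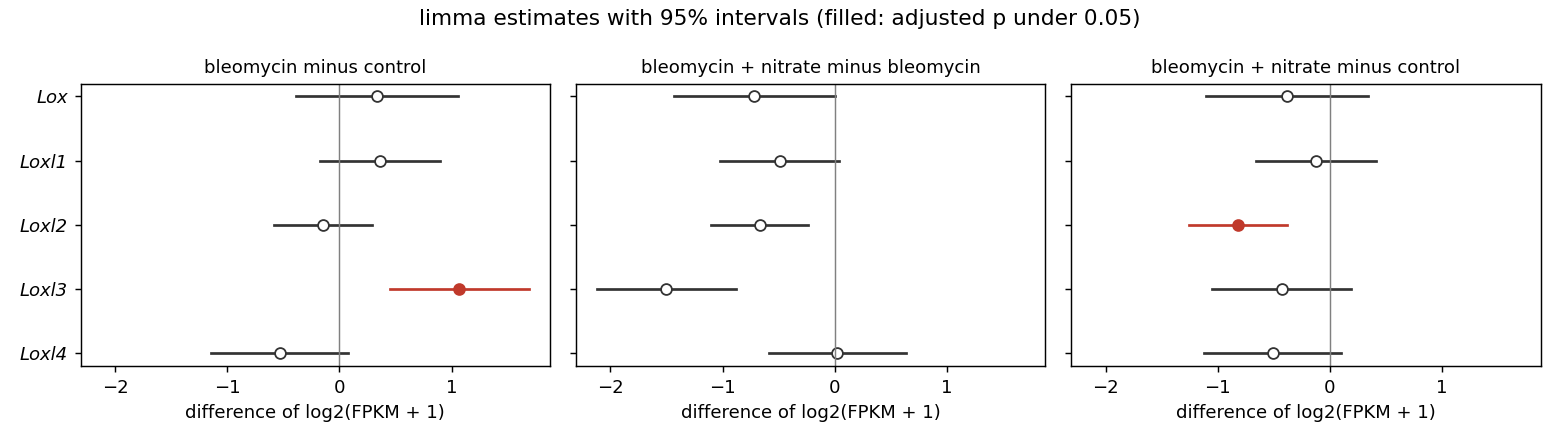
Difference of log2(FPKM + 1) with its 95% interval from limma (horizontal axis) for each lysyl oxidase gene in 3 comparisons, tested condition minus its reference as titled, filled points marking an adjusted p under 0.05. The filled points are Loxl3 at 1.07 in bleomycin minus control and Loxl2 at -0.82 in bleomycin plus nitrate minus control.

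Lox, the founding enzyme of the family and the main crosslinker of fibrillar collagen and elastin, was its most abundant member. It had 25.4, 53.3 and 24.7 FPKM in bleomycin plus nitrate 1, 2 and 3, 56.1, 40.1 and 68.7 FPKM in bleomycin 1, 2 and 3, and 40.2, 51.7 and 36.7 FPKM in control 1, 2 and 3. The groups overlapped in every pair, with nitrate 2 above every control library. The difference was 0.33 ± 0.32 in bleomycin against control (adjusted p = 0.531, 95% interval -0.39 to 1.05). With added nitrate against bleomycin it was -0.72 ± 0.32 (adjusted p = 0.280, interval -1.44 to 0.00), and against control -0.38 ± 0.32 (adjusted p = 0.427, interval -1.10 to 0.34). The width of these intervals leaves the direction of Lox undecided in all 3 comparisons.

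Loxl1 acts mainly on elastin, and mice without it renew elastic fibres poorly and have loose skin. Its values were 22.8, 31.5 and 22.1 FPKM in bleomycin plus nitrate 1, 2 and 3, 29.3, 39.5 and 39.4 FPKM in bleomycin 1, 2 and 3, and 29.0, 36.0 and 19.99 FPKM in control 1, 2 and 3. The groups overlapped in every pair. Loxl1 was 0.36 ± 0.23 in bleomycin against control (adjusted p = 0.353), -0.49 ± 0.23 with added nitrate against bleomycin (adjusted p = 0.315) and -0.13 ± 0.23 with added nitrate against control (adjusted p = 0.731).

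Loxl2 crosslinks collagen I and collagen IV and is also found in the nucleus. It had 10.97, 13.3 and 9.74 FPKM in bleomycin plus nitrate 1, 2 and 3, 14.9, 21.2 and 19.9 FPKM in bleomycin 1, 2 and 3, and 18.5, 26.2 and 17.99 FPKM in control 1, 2 and 3. All 3 nitrate libraries lay below all bleomycin and all control libraries, and the bleomycin and control libraries overlapped. With bleomycin plus nitrate Loxl2 averaged 11.3 ± 1.79 FPKM, against 20.9 ± 4.58 FPKM in control (SD, n = 3 each), a fall of -0.82 ± 0.19 (limma, adjusted p = 0.0383, 95% interval -1.25 to -0.38). Against bleomycin alone, at 18.7 ± 3.33 FPKM (SD, n = 3), the difference with nitrate was -0.67 ± 0.19 and did not pass (limma, adjusted p = 0.142). Bleomycin against control gave -0.15 ± 0.19 (adjusted p = 0.654). The call against control was lost without nitrate 1 (adjusted p = 0.0907), nitrate 3 (0.124), control 1 (0.0894), control 2 (0.129), control 3 (0.0544) or both control 1 and bleomycin 1 (0.101). It was also lost with no filter on low genes (0.0895) and with only these groups in the fit (0.0687), and over all alternatives its adjusted p ran from 0.0243 to 0.129 while the difference stayed between -0.93 and -0.65.

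Markers of several cell types moved in the same comparison as Loxl2. The summed FPKM of 8 endothelial markers was 66.5 to 121 with bleomycin plus nitrate and 163 to 188 in control, and that of 8 smooth muscle and pericyte markers 230 to 676 and 787 to 1028. For 8 adipocyte markers it was 245 to 871 with bleomycin plus nitrate and 1338 to 2021 in control, while for 12 fibroblast markers the ranges overlapped, at 535 to 862 and 786 to 1192. In that comparison 4 of 8 endothelial, 3 of 8 smooth muscle and pericyte, 5 of 8 adipocyte and 1 of 12 fibroblast markers were called lower, and none was called higher. Skeletal muscle markers (10 listed) summed to 2365 to 11162 FPKM with bleomycin plus nitrate and 14250 to 20770 in control, with 1 of 9 tested called lower. Interfollicular keratinocyte markers went the other way, at 5469 to 9096 summed FPKM for 10 markers with bleomycin plus nitrate and 2924 to 5051 in control, with 1 of 10 called higher. No marker of the endothelial, smooth muscle, adipocyte, fibroblast and keratinocyte lists was at 0 reads in any library. Within each group, library 2 was the highest both in Loxl2 and in summed fibroblast markers. It was also the highest in Loxl1 and in the sums of the fibrillar collagen, elastic fibre, and processing and docking genes described below. In biopsies, fewer cells of a type and less RNA per cell cannot be told apart, and the part of these markers in the Loxl2 value was not tested.

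Loxl3, a relative of Loxl2 that mice need for forming the palate and spine, had the largest difference of the 5 members in bleomycin against control and in bleomycin plus nitrate against bleomycin. Its values were 3.17, 1.77 and 1.24 FPKM in bleomycin plus nitrate 1, 2 and 3, 7.36, 5.39 and 9.99 FPKM in bleomycin 1, 2 and 3, and 2.91, 3.75 and 2.42 FPKM in control 1, 2 and 3. Every bleomycin library stood above all others, and nitrate and control overlapped. Bleomycin averaged 7.58 ± 2.31 FPKM, against 3.03 ± 0.669 FPKM in control (SD, n = 3 each), and Loxl3 rose by 1.07 ± 0.27 (limma, adjusted p = 0.0471, 95% interval 0.45 to 1.69). With added nitrate it averaged 2.06 ± 0.997 FPKM (SD, n = 3), a difference of -1.50 ± 0.27 from bleomycin (limma, adjusted p = 0.0890, interval -2.12 to -0.88) that did not pass although Loxl3 ranked 72 of 14645 genes by p. Against control the nitrate group gave -0.43 ± 0.27 (adjusted p = 0.301). The rise with bleomycin was lost without bleomycin 1 (adjusted p = 0.103), bleomycin 3 (0.146), control 1 (0.107), control 2 (0.0959), control 3 (0.131) or both control 1 and bleomycin 1 (0.184). It was also lost with an added constant of 0.1 (0.0634) or 0.5 (0.0536) and with no filter on low genes (0.102), and over all alternatives its adjusted p ran from 0.0268 to 0.184 while the difference stayed between 0.87 and 1.30.

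Htra2, the mitochondrial protease gene that overlaps the Loxl3 3' end, had differences of 0.17 ± 0.14 in bleomycin against control (limma, adjusted p = 0.452) and -0.36 ± 0.14 with added nitrate against bleomycin (limma, adjusted p = 0.222). Its FPKM over all libraries ran from 3.64 to 6.08. Htra2 thus had the same sign as Loxl3 in both comparisons and a smaller difference. With added nitrate against bleomycin its groups also lay apart and lower, as for 11.8% of tested genes (limma, unadjusted p = 0.0289). The part of shared reads in the Loxl3 values was not tested.

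Among the 9 libraries, Loxl3 tended to be high where the summed macrophage markers were high. Libraries 1, 2 and 3 of bleomycin plus nitrate held 881, 490 and 337 summed FPKM of 10 macrophage markers, those of bleomycin 1277, 1066 and 1949, and those of control 687, 664 and 462. Over the 9 libraries its log2 value had a Pearson r of 0.97 and a Spearman rho of 0.93 with that of Loxl3, and r was 0.92 without the 2 libraries farthest from the median of the marker sum. This is a description of libraries that share tissue content and treatment. All 10 markers were above 0 reads in every library. With bleomycin against control 1 of 10 was called, Lyz2, the lysozyme of myeloid cells, which may share reads with its close copy Lyz1 (1.45 ± 0.31, limma adjusted p = 0.0284), and 9 of 10 estimates lay above 0. In that comparison groups lay apart and higher for 7 of 10 markers, and apart and lower for 1. Of all tested genes, 18.4% lay apart and higher and 17.3% apart and lower. With added nitrate against bleomycin 0 of 10 were called and 10 of 10 estimates lay below 0. Neutrophil markers moved too, with 5 of 5 tested markers called higher in bleomycin against control. Their summed FPKM was 22.2 to 183 with bleomycin plus nitrate, 454 to 3206 with bleomycin and 10.7 to 32.6 in control, and some of the 8 markers listed were at 0 reads in 8 of the 9 libraries. Other lists moved as well, and their correlation with Loxl3 was not computed. The 14 regulator genes described below summed to 140 to 190 FPKM with bleomycin plus nitrate, 249 to 273 with bleomycin and 168 to 200 in control. For the 11 processing and docking genes, also described below, the sums were 194 to 239, 322 to 382 and 208 to 300 FPKM. In both lists every bleomycin library stood above all others, as for Loxl3. Keratinocyte markers summed to 7913 to 11299 FPKM with bleomycin and 2924 to 5051 in control. With added nitrate against bleomycin 8 of 10 of their estimates lay below 0. Estimates for 8 of 8 adipocyte and 9 of 9 skeletal muscle markers lay below 0 in both comparisons, and for 18 of 18 hair follicle markers above 0. The part of any of these cell types or lists in the Loxl3 values was not tested.

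**Figure D3:**
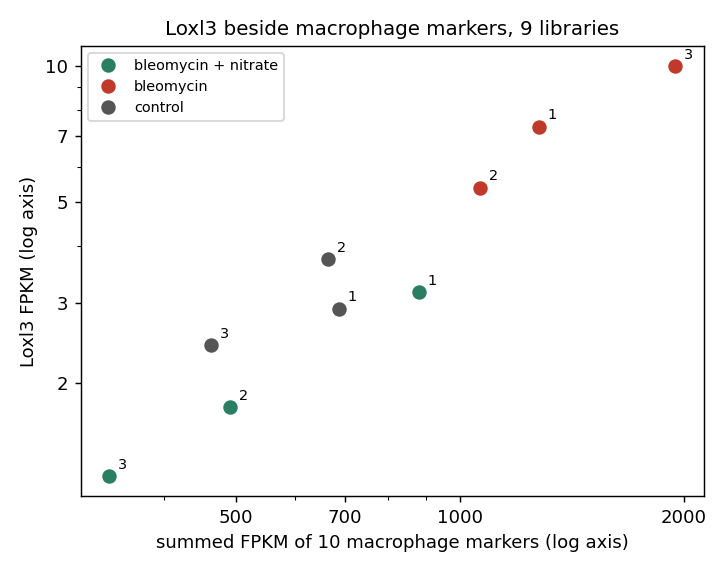
Loxl3 FPKM (vertical log axis) against the summed FPKM of 10 macrophage markers (horizontal log axis), with 1 point per library numbered by replicate and coloured by group. The 3 bleomycin libraries lie at the upper right, at 1066 to 1949 summed FPKM, and nitrate 3 at the lower left, at 337.

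Among the 14645 tested genes, those most like Loxl3 over the 9 libraries on log2(FPKM + 1) were Vcam1, Cx3cr1 and Tmem176b. Vcam1, an adhesion molecule that binds leukocytes, had r = 0.99 (rho = 0.95) and averaged 1.495 ± 0.725 FPKM with bleomycin plus nitrate, 5.71 ± 2.05 with bleomycin and 2.07 ± 0.220 in control (SD, n = 3 each). Cx3cr1, the fractalkine receptor of monocytes and macrophages, had r = 0.98 (rho = 0.98). Tmem176b, a membrane protein of antigen-presenting cells, had r = 0.97 (rho = 0.95). These genes were picked for their likeness, so no test is given.

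Loxl4 was the least abundant member by mean FPKM over the 9 libraries. It had 3.05, 3.69 and 2.21 FPKM in bleomycin plus nitrate 1, 2 and 3, 1.73, 4.95 and 2.58 FPKM in bleomycin 1, 2 and 3, and 4.44, 4.53 and 4.85 FPKM in control 1, 2 and 3. The nitrate libraries all lay below the control libraries, whereas the bleomycin libraries spread across both groups, with bleomycin 2 the highest of all 9. The difference was -0.53 ± 0.27 in bleomycin against control (adjusted p = 0.243), 0.02 ± 0.27 with added nitrate against bleomycin (adjusted p = 0.9752) and -0.51 ± 0.27 with added nitrate against control (adjusted p = 0.222). Loxl4 was thus not called in any comparison.

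Groups did not overlap for 1 of 5 members (Loxl3, higher) in bleomycin against control, where 35.7% of tested genes had groups apart, 18.4% higher and 17.3% lower. The count was 2 of 5, Loxl2 and Loxl3, both lower, in bleomycin plus nitrate against bleomycin, with a background of 21.2%, 9.4% higher and 11.8% lower. It was again 2 of 5, Loxl2 and Loxl4, both lower, in bleomycin plus nitrate against control, with a background of 34.8%, 17.3% higher and 17.5% lower. Counts this small over such backgrounds are no result about the family.

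For Loxl2 the genes most like it over the 9 libraries were Tmem158 (r = 0.96, rho = 0.92), the secreted glycoprotein gene Fstl1 (r = 0.95, rho = 0.98) and Col5a1 (r = 0.95, rho = 0.95), a collagen V chain that nucleates collagen fibrils. Col5a1 averaged 40.4 ± 6.08 FPKM with bleomycin plus nitrate, 70.2 ± 14.3 with bleomycin and 72.6 ± 17.5 in control (SD, n = 3 each). For Lox they were Ubl3 (r = 0.95, rho = 0.92), Tk2 and Dnajb4, and for Loxl1 A430005L14Rik (r = 0.92, rho = 0.92) and Tmed8. For Loxl4 the closest was Twist2 (r = 0.93, rho = 0.80), a transcription factor of dermal fibroblasts.

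Several collagens that the enzymes crosslink fell against control, in comparisons in which Lox and Loxl1 were not called. Of 11 fibrillar collagen genes 8 were tested, and with bleomycin against control 3 fell and 0 rose, with a median difference of -0.34 beside 0.01 over all tested genes. Against control, 6 of 8 fell with added nitrate (median -0.91 beside 0.02), among them the collagen V chains Col5a1 (-0.82 ± 0.21, adjusted p = 0.0486), Col5a2 (-0.71 ± 0.17, adjusted p = 0.0391) and Col5a3 (-0.995 ± 0.23, adjusted p = 0.0366). Against bleomycin, 0 of 8 were called with added nitrate (median -0.21 beside 0.00). Cell-type markers moved in the same comparison of bleomycin against control. The median difference was -0.59 over 12 fibroblast markers (11 below 0, 1 called lower), -0.60 over 8 endothelial markers (8 below 0, 1 called lower), -0.79 over 8 adipocyte markers (8 below 0, 1 called lower) and -1.31 over 9 skeletal muscle markers (9 below 0, 0 called). Over 8 smooth muscle and pericyte markers it was -0.65 (7 below 0, 1 called lower). It was 0.90 over 10 keratinocyte markers (10 above 0, 3 called higher) and 1.13 over 18 hair follicle markers (18 above 0, 0 called). Over 10 macrophage markers it was 0.995 (9 above 0, 1 called higher), and over 5 neutrophil markers 2.66 (5 above 0, 5 called higher). The part of any of these in the collagen values was not tested. Col1a1, the main chain of type I collagen, averaged 860 ± 177 FPKM with bleomycin plus nitrate, 937 ± 240.3 with bleomycin and 2661 ± 336 in control (SD, n = 3 each).

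Levels set against Col1a1 follow the lower Col1a1 of both bleomycin groups. A gene with no change in FPKM would gain 1.53 log2 units in this ratio with bleomycin against control and 1.64 with added nitrate against control, and 0.11 with added nitrate against bleomycin. Per 1000 FPKM of Col1a1, Lox had 34.3, 50.1 and 31.9 FPKM with bleomycin plus nitrate 1, 2 and 3, 70.8, 33.0 and 85.3 with bleomycin 1, 2 and 3, and 16.2, 17.0 and 15.0 in control 1, 2 and 3. Loxl1 had 30.8, 29.6 and 28.4 with nitrate, 37.0, 32.6 and 49.0 with bleomycin, and 11.7, 11.8 and 8.16 in control. Loxl2 had 14.8, 12.5 and 12.6 with nitrate, 18.8, 17.5 and 24.7 with bleomycin, and 7.45, 8.58 and 7.34 in control. Loxl3 had 1.60 to 4.28 with nitrate, 4.44 to 12.4 with bleomycin and 0.989 to 1.23 in control, and Loxl4 had 2.85 to 4.12, 2.19 to 4.07 and 1.49 to 1.98 in the same order of groups. All 6 bleomycin-treated libraries were above all 3 control libraries for each of the 5 members. The same held for most genes: in the ratio to Col1a1, 84.8% of the other 14644 tested genes lay apart and higher with bleomycin against control (0.423% lower), and 86.8% with added nitrate against control (0.3% lower). These counts are therefore no result about the family.

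As a log2 ratio to Col1a1, bleomycin minus control was 1.87 for Lox, 1.90 for Loxl1, 1.37 for Loxl2, 2.83 for Loxl3 and 0.81 for Loxl4, beside a median of 1.54 over the 14056 genes above 0 in all libraries. Lox, Loxl1 and Loxl3 were above that median, and Loxl2 and Loxl4 below it. Bleomycin plus nitrate minus control was 1.24, 1.51, 0.77, 1.001 and 0.99 in the same order of genes, all below the median of 1.65. Each of these 10 differences had an exact two-sided permutation p of 0.1, the smallest that 3 libraries against 3 allow (adjusted p = 0.115 over the 15 comparisons made). The fall of Col1a1 is common to all of them, so they are not independent. Between bleomycin plus nitrate and bleomycin the ratio differed by -0.62 for Lox (exact p = 0.3), -0.39 for Loxl1, -0.60 for Loxl2 and -1.83 for Loxl3 (exact p = 0.1 for each of these 3), and 0.17 for Loxl4 (exact p = 0.6), beside a median of 0.10. Groups lay apart and lower for those 3 members, as for 2.9% of the other genes, while 5.64% lay apart and higher. The 3 ratios share the Col1a1 denominator, and each had an adjusted p of 0.115 in the exact permutation test. In FPKM the Loxl1 libraries of these groups overlapped. This count is therefore no result about the family.

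**Figure D4:**
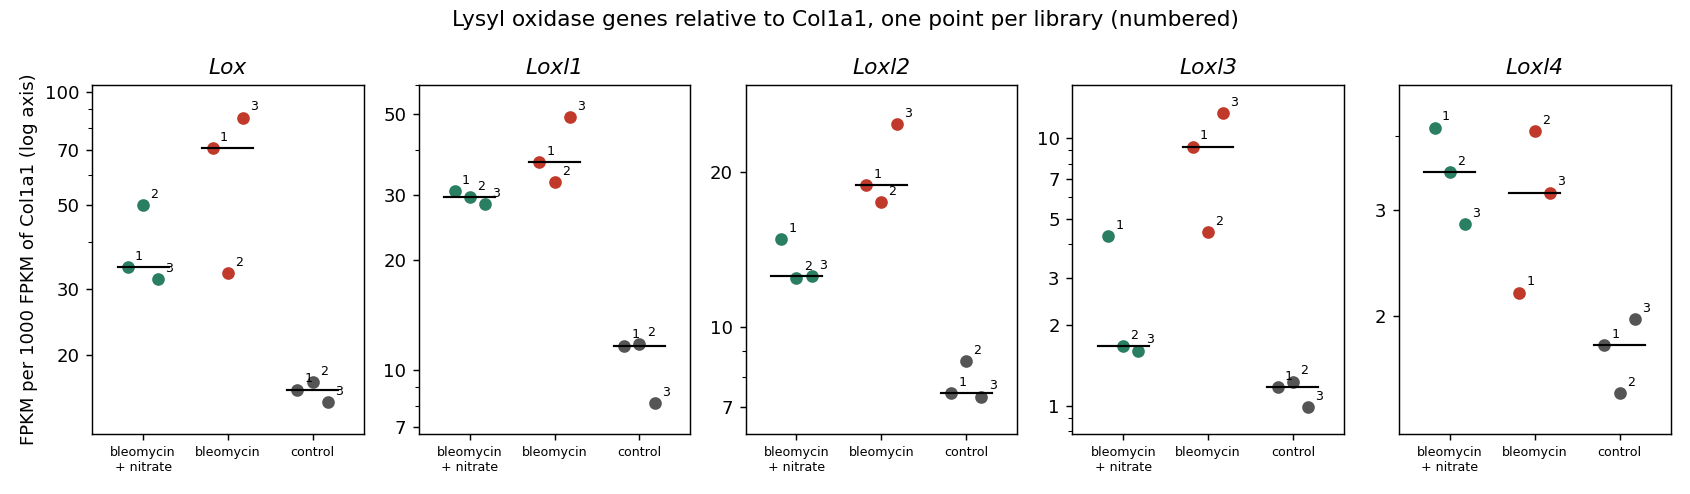
FPKM of each lysyl oxidase gene per 1000 FPKM of Col1a1 (vertical log axis) in bleomycin plus nitrate, bleomycin and control, with 1 point per library numbered by replicate and a line at the group median. For every gene shown the 3 control libraries are the lowest, as for most genes of the table, such as 15.0 to 17.0 for Lox against 31.9 to 85.3 in the bleomycin-treated libraries.

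The elastic fibre genes went both ways. Elastin itself, the other main substrate, had Eln at 14.2, 46.6 and 18.4 FPKM in bleomycin plus nitrate 1, 2 and 3, 6.94, 10.6 and 12.3 FPKM in bleomycin 1, 2 and 3, and 32.5, 50.2 and 34.9 FPKM in control 1, 2 and 3. All bleomycin libraries lay below all others, and Eln fell with bleomycin against control (-1.88 ± 0.41, adjusted p = 0.0291), while nitrate against bleomycin did not pass (1.17 ± 0.41, adjusted p = 0.193). Of 13 genes for elastin and elastic fibre assembly 3 rose and 1 fell with bleomycin against control (median 0.11), 0 were called with added nitrate against bleomycin (median -0.52) and 0 with added nitrate against control (median -0.10). Those that rose were Ltbp2, a microfibril-binding protein (1.90 ± 0.31, adjusted p = 0.0120), Fbln2, a fibulin of the vessel wall and dermis (1.05 ± 0.17, adjusted p = 0.0116), and Fbn2, a microfibril fibrillin (0.99 ± 0.20, adjusted p = 0.0225). Fbln5, which tethers Loxl1 to elastin, was at 0.11 ± 0.20 (adjusted p = 0.753).

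Among 6 collagen IV chains, the basement membrane substrates of Loxl2, 4 were tested and 1 fell with bleomycin against control. That was Col4a6, a chain of epithelial basement membrane (-0.91 ± 0.22, adjusted p = 0.0416). None was called in the other comparisons, and the medians were -0.39 in bleomycin against control, -0.09 in bleomycin plus nitrate against bleomycin and -0.46 in bleomycin plus nitrate against control. The major chains Col4a1 and Col4a2 had -0.83 ± 0.27 (adjusted p = 0.0862) and -0.65 ± 0.21 (adjusted p = 0.0796) with added nitrate against control.

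Genes that process the proenzymes or procollagen, or that dock the enzymes, went both ways. The 3 that fell against control are genes of procollagen processing, given below. Of 11 such genes 9 were tested, and with bleomycin against control 2 rose and 3 fell (median 0.07), 0 were called with added nitrate against bleomycin (median -0.19), and 0 rose and 3 fell with added nitrate against control (median -0.41). Fn1, the fibronectin that Lox binds for its activation, had 45.1, 37.6 and 30.5 FPKM in bleomycin plus nitrate 1, 2 and 3, 88.6, 79.3 and 84.6 FPKM in bleomycin 1, 2 and 3, and 28.9, 57.4 and 31.5 FPKM in control 1, 2 and 3. All bleomycin libraries were above all others, and Fn1 rose with bleomycin (1.15 ± 0.25, adjusted p = 0.0307). Postn, the matricellular protein periostin that brings Bmp1 and Lox together on the matrix, also rose (1.60 ± 0.20, adjusted p = 0.00567). Neither passed with added nitrate against bleomycin, at -1.15 ± 0.25 for Fn1 (adjusted p = 0.115) and -0.92 ± 0.20 for Postn (adjusted p = 0.112).

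Bmp1, the protease that removes the Lox propeptide, was at 0.19 ± 0.18 with bleomycin against control (adjusted p = 0.534) and -0.19 ± 0.18 with added nitrate against bleomycin (adjusted p = 0.608). Its enhancers for procollagen fell. Pcolce2 had 3.69, 8.64 and 2.24 FPKM in bleomycin plus nitrate 1, 2 and 3, 0.836, 2.11 and 1.58 FPKM in bleomycin 1, 2 and 3, and 14.7, 19.01 and 14.5 FPKM in control 1, 2 and 3. Every control library was above every bleomycin-treated library, and the difference from control was -2.79 ± 0.37 with bleomycin (adjusted p = 0.00663) and -1.69 ± 0.37 with added nitrate (adjusted p = 0.0345). Pcolce fell in both as well (-0.92 ± 0.15, adjusted p = 0.0116, and -1.36 ± 0.15, adjusted p = 0.00761), as did Adamts14, a procollagen protease (-0.62 ± 0.14, adjusted p = 0.0310, and -0.65 ± 0.14, adjusted p = 0.0316).

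Copper reaches lysyl oxidases through import, a cytosolic chaperone and a Golgi pump. Of 8 copper supply genes 7 were tested, and with bleomycin against control 0 were called (median 0.25, 7 of 7 estimates above 0). Against control, 2 of 7 rose and 0 fell with added nitrate (median 0.27). These were Slc31a1, the copper importer, at 26.5 ± 2.37 FPKM with bleomycin plus nitrate and 15.3 ± 1.996 FPKM in control (0.76 ± 0.13, adjusted p = 0.0187), and Atp7a, the pump that loads copper onto Lox in the secretory pathway, at 5.28 ± 1.26 and 3.10 ± 0.230 FPKM (0.60 ± 0.14, adjusted p = 0.0419; SD, n = 3 each). Against bleomycin, 0 of 7 were called with added nitrate (median 0.00).

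Lysine hydroxylation before secretion decides which kind of crosslink can form. Of 9 genes for this step 1 fell with bleomycin against control, 2 fell with added nitrate against control, 0 were called with added nitrate against bleomycin, and none rose (medians 0.01, -0.44 and -0.34 in that order). Plod1, the hydroxylase of lysines in the collagen helix, had -0.73 ± 0.17 with bleomycin (adjusted p = 0.0383) and -1.07 ± 0.17 with added nitrate (adjusted p = 0.0170), each against control. Fkbp10, a chaperone needed for hydroxylating the collagen ends, fell with added nitrate against control (-0.97 ± 0.14, adjusted p = 0.0139). Plod2, the hydroxylase of the collagen ends that is linked to fibrotic crosslinks, was at 4.92, 1.19 and 3.02 FPKM in bleomycin plus nitrate 1, 2 and 3, 3.77, 3.501 and 5.39 FPKM in bleomycin 1, 2 and 3, and 1.78, 2.18 and 2.18 FPKM in control 1, 2 and 3. All bleomycin libraries were above the control libraries, nitrate spread across both, and the difference of bleomycin from control did not pass (0.76 ± 0.32, adjusted p = 0.173).

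Genes known to regulate the family or to be controlled together with it included several that rose. Of 14 such genes 4 rose and 0 fell with bleomycin against control (median 0.00), 1 rose with added nitrate against control (median -0.43) and 0 were called with added nitrate against bleomycin (median -0.44, 12 of 14 estimates below 0). Among those that rose with bleomycin were Ccn2, listed as Ctgf, a matricellular TGF-beta target (1.02 ± 0.26, adjusted p = 0.0471), Hif1a, the oxygen-sensing factor that induces Lox genes in low oxygen (0.85 ± 0.17, adjusted p = 0.0231), and Snai1, a transcription factor that Loxl2 and Loxl3 bind (0.84 ± 0.18, adjusted p = 0.0293). Tgfb1 did not pass (0.69 ± 0.21, adjusted p = 0.0839). Snai2, a relative of Snai1, rose with added nitrate against control (0.98 ± 0.23, adjusted p = 0.0405).

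Enzymes that crosslink matrix by other chemistry were described beside the family. Of 3 such genes 0 were called with bleomycin against control (median -0.51), 0 with added nitrate against bleomycin (median -0.69), and 1 fell with added nitrate against control (median -1.20). Tgm2, a transglutaminase, had 19.8 ± 8.50 FPKM with bleomycin plus nitrate and 56.5 ± 6.04 FPKM in control (SD, n = 3 each), a difference of -1.54 ± 0.29 (limma, adjusted p = 0.0245).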

How the data were processed

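Gene FPKM of 9 skin RNA-seq libraries came in 1 table deposited by the authors, beside gene coordinates and lengths. Per the submitters' processing notes the build was mm10, and per the labels' protocols mRNA libraries were made with a SMARTer kit. Aligner, counter and scaling are not given in the sources used here. FPKM times gene length came in whole steps for 100% of values within 0.01, which gave whole reads, and the library size behind the authors' scaling was 0.916 to 1.09 times those reads. Groups came from sample titles. Genes with at least 1 FPKM in at least 3 libraries entered a limma fit (version 3.58.1, R 4.3.3) of log2(FPKM + 1) (3 group means, trend and robust eBayes, two-sided), and p-values were adjusted over all 14645 genes. Since the table holds FPKM, a count model (voom on the recovered whole reads) was only an alternative. Of several genes sharing a symbol, the one with the highest mean FPKM stood for it. The members, the gene lists and the alternatives were chosen with earlier results of these data known. The genes named are the 5 members, up to 4 genes per list with the smallest p, 9 set genes (Col1a1, Col1a2, Col3a1, Eln, Bmp1, Fn1, Plod2, Atp7a and Fbln5), the 3 genes most correlated with each member and genes overlapping a member, not all of which are printed. Python 3.11.15 with matplotlib 3.10.9 drew the plots.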

Additional observations from a re-analysis of the deposited data

How the results depend on the processing

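With bleomycin against control, 1234 genes and 1 lysyl oxidase gene were called. The gene count was 676 with no filter, 747 at a mean FPKM of at least 5, 1947 with sample weights, 137 without both control 1 and bleomycin 1, and 334 to 695 leaving out 1 library. No lysyl oxidase gene (0) was called with an added constant of 0.1 or 0.5, with no filter, at a mean FPKM of at least 5 (which removes Loxl3 and Loxl4), with the replicate block or without both libraries, and 0 to 1 leaving out 1 library. With added nitrate against bleomycin, 0 genes were called, 10 with the replicate block and 0 to 37 leaving out 1 library. With added nitrate against control, 1249 genes were called, 294 with no filter, 306 with only these groups in the fit, 2085 with sample weights, 23 without both libraries and 45 to 2882 leaving out 1 library. There Loxl2 was the 1 member called, 0 were called with no filter, with only these groups or without both libraries, and 0 to 1 leaving out 1 library. Estimates that were never called changed sign for Loxl2 in bleomycin against control (-0.243 to 0.0172 leaving out 1 library, above 0 without control 2), for Loxl1 in nitrate against control (-0.350 to 0.0596, above 0 without control 2) and for Loxl4 in nitrate against bleomycin (-0.23 to 0.331 leaving out 1 library, with -0.10 without nitrate 2, -0.23 without bleomycin 1 or without both libraries, -0.03 without bleomycin 3). The Loxl4 ratio to Col1a1 in nitrate against bleomycin ran from -0.0716 to 0.38 leaving out 1 library. The causes were not tested. Whether the replicate numbers pair the libraries is not known. Correlations of deviations from the group means ran from -0.39 to 0.52 for same-numbered libraries. For differently numbered libraries they ran from -0.57 to 0.58, so these values do not settle it. Under the replicate block Loxl3 in bleomycin against control was not called (limma, adjusted p = 0.0795). The members had 109 to 5824 reads per library, and the part of read depth in these results was not tested.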

Other observations

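Within groups, Loxl1 and Loxl2 varied together. Their deviations from the group means over the 9 libraries had r = 0.88 (rho = 0.93), beside r = 0.63 for Loxl2 and Loxl4 (rho = 0.62), 0.59 for Lox and Loxl1, and -0.23 to 0.47 for the other 7 pairs. The genes whose deviations were most like those of Loxl3 were Myl4 (r = 0.98), the complement gene C1qa of macrophages (r = 0.98) and Mymk, a gene of muscle cell fusion (r = 0.97). Myl4 stood at 8.42 ± 7.84 FPKM with bleomycin plus nitrate, 18.2 ± 9.83 with bleomycin and 11.7 ± 5.70 in control (SD, n = 3 each). In the same order of groups C1qa stood at 72.9 ± 49.2, 210.3 ± 89.4 and 82.5 ± 17.9 FPKM. Mymk stood at 5.47 ± 8.06, 10.8 ± 8.49 and 10.3 ± 3.98 FPKM. For Lox the genes most alike in deviations were Maf1, Mgp and Use1. Taking deviations from 3 group means leaves fewer free values than 9 libraries. These correlations are descriptions over 9 libraries, picked for likeness, with no test.

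The family as a whole summed to 76.3 ± 23.7 FPKM with bleomycin plus nitrate, 120.4 ± 17.5 FPKM with bleomycin and 99.7 ± 20.51 FPKM in control (SD, n = 3 each). Lox took 43.8, 45.4 and 43.1% of that sum on average in bleomycin plus nitrate, bleomycin and control. The share of Loxl3 was 2.88 ± 1.72% with bleomycin plus nitrate, 6.23 ± 1.21% with bleomycin and 3.03 ± 0.0631% in control, and that of Loxl2 15.3 ± 2.15%, 15.6 ± 3.01% and 20.9 ± 1.31% in the same order of groups. No test is given for these sums and shares.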
